A study of Mus musculus with 8 samples.

Results

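Kcnj8, Abcc9 and Kcne3 encode subunits of potassium channels, and they are 3 of the 31053 genes in a table of single-cell RNA counts from mouse liver. They were picked out because an earlier analysis of the same table found them higher in sinusoidal endothelial cells of 1 mouse on a high fat, high cholesterol (HFHC) diet than in those of control mice. They were thus chosen by their UMI levels in that contrast, and values for it are given here as a description, with no test. Liver cells of 8 mice, 4 on a control chow and 4 on the HFHC diet, were made into 1 library each on the 10x Chromium platform, in which a unique molecular identifier (UMI) marks each captured RNA molecule. The mice were labelled male C57BL/6, were bought at 6 to 8 weeks of age and had free access to their diet for 20 to 32 weeks. Non-parenchymal liver cells were cleared of dead cells and flow sorted, with antibodies to PDPN, CD146, CD31 and CD45, to enrich for stromal, mainly endothelial, cells. No gene was altered in either group, and the labels do not say how long each mouse was fed.

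ATP-sensitive potassium channels open when the energy state of a cell falls or when protein kinase A acts on them, and potassium then leaves the cell and the membrane becomes more negative. Each channel joins pore subunits of the Kir6 family with regulatory subunits of the sulfonylurea receptor family. Kcnj8 encodes the pore Kir6.1 and Abcc9 encodes the receptor SUR2, and both are best known from vascular smooth muscle, pericytes and some endothelium, where opening of the channel relaxes vessels. Kcne3 encodes a small membrane protein with a single span that joins other potassium channels, among them KCNQ1 in secretory epithelia such as that of the gut, and it is not known as a part of the ATP-sensitive channel.

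In the mm10 assembly Kcnj8 lies on chromosome 6 at 142564837 to 142571614 and Abcc9 at 142587862 to 142702315, both on the minus strand, 16247 bases apart. Kcne3 lies on the plus strand of chromosome 7 at 100176502 to 100184869. The antisense gene 5330439B14Rik overlaps Abcc9 and had 0 UMIs, and the antisense gene Gm34821 overlaps Kcne3 and had 4. Whether counting used strand is not given in the sources used here, so reads of Kcne3 and Gm34821 may not be separable. The promoters of all 3 genes matched RefSeq (GRCm38.p6, the same build), each from 250 bases before the transcript start to 50 bases after it. The following 3 are shown because Kcnj8 and Abcc9 were both high in the same library and were richest in 1 short motif. That motif was thus chosen by its counts in these promoters, among the several looked for. Capitals mark CACCC, the core letters bound by KLF factors, or GGGTG, the same letters on the other strand, and each line runs 5′ to 3′ along the gene.
Kcnj8, chr6:142571565-142571864: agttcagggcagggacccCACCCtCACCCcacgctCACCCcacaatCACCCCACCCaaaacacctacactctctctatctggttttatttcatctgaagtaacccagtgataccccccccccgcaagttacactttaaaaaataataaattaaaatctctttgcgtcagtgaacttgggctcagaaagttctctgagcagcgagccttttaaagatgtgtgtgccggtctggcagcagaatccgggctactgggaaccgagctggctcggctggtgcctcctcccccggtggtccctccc
Abcc9, chr6:142702225-142702524: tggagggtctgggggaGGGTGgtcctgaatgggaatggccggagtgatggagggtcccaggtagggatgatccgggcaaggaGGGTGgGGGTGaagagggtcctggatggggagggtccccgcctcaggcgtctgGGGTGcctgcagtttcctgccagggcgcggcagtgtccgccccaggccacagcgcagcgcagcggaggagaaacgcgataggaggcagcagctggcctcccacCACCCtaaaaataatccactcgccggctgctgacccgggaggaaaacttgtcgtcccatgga
Kcne3, second start, chr7:100178433-100178732: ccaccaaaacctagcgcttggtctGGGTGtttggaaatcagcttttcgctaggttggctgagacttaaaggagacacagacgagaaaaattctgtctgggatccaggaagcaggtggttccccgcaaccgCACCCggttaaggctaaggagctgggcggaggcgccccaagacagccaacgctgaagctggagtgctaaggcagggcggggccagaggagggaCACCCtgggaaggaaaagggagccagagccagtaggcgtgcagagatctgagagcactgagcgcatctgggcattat
CACCC occurred 5 times in the Kcnj8 promoter and 5 times in the Abcc9 promoter. Over the 32851 mouse promoters of this length 57.5% held the motif on either strand and 1.02% held at least 5 copies. The Kcne3 promoter at its second start held 3 copies, and 9.35% of promoters held at least as many. The one at its first start held none. The GC content was 53.3% for Kcnj8, 65.7% for Abcc9 and 57.7% for the second Kcne3 start, against a median of 52.7% over all promoters. The AP-1 motif TGANTCA occurred only at the first Kcne3 start among the 4 promoters, once, and was present in 7.81% of all promoters. Also looked for on both strands were GGAA, the core of ETS sites, with ACGTG, the hypoxia response core, and CANNTG, the E-box. The ETS core and the E-box were found in all 4 windows, and in 96.0% and 72.3% of all promoters. ACGTG was found once, at the first Kcne3 start, and was present in 19.6% of all promoters. The FOXO motif GTAAACA had no match in the Kcnj8 and Abcc9 windows, nor had the nuclear receptor motif TGACCT, the SOX motif AACAAT or the TATA box TATAAA. A letter match is not evidence that a factor binds there.

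Some libraries stood apart before any gene was compared. Controls 1 and 2 and HFHC 1, 2 and 3 shared 33 to 65 cell barcodes in every pair, whereas no pair involving another library shared more than 4, and a shared barcode was assigned to the library that held most of its UMIs. That left 3192 of 3416 cells, from 47 in HFHC 1 to 875 in control 2, with median UMIs per cell between 1364 and 5928. Control 4, labelled male, had Xist in 67 of 94 cells and no Y-linked UMI, while the other 7 libraries had no Xist. Cells were put in a class when at least 3 markers of 1 of 15 cell type lists were detected and that list had the largest share of its markers. The class of liver sinusoidal endothelial cells (LSECs), the fenestrated cells that line liver capillaries, numbered 25, 64, 537 and 38 cells from controls 1 to 4 but 3, 0, 3 and 541 cells from HFHC 1 to 4. All 8 pan-endothelial markers, which were not used to define a class, had UMIs in every library that had such cells. So had all 10 LSEC markers, but these defined the class. Markers of other classes were present too. In LSECs, Kupffer cell and macrophage markers summed to 1107 CPM in control 1 against 30.0 CPM in HFHC 4. Hepatocyte markers summed to 1262 CPM in control 2 against 76.7 CPM in HFHC 4. Nearly all LSECs on the HFHC diet thus came from 1 mouse, and comparisons of diets within LSECs are comparisons of that mouse.

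All 3 genes were rare. Kcnj8, the channel pore, had 137 UMIs in 86 cells (2.69% of all cells), Abcc9, its regulatory subunit, 90 UMIs in 68 cells (2.13%), and Kcne3, the accessory subunit, 187 UMIs in 97 cells (3.04%). Most of these cells held a single UMI of the gene, 55 for Kcnj8, 55 for Abcc9 and 57 for Kcne3, and no cell held more than 7. The LSECs of HFHC 4 contributed 81.0% of the Kcnj8 UMIs, 72.2% of the Abcc9 UMIs and 44.9% of the Kcne3 UMIs. Levels below are UMIs summed over the cells of a class and divided by all UMIs of the same cells, as counts per 1000000 (CPM), with exact 95% Poisson intervals, and shares of cells carry exact 95% Clopper-Pearson intervals. Both cover counting error only, and because cells are not replicates they say nothing about variation between mice.

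Kcnj8 in LSECs had a level of 0 CPM in controls 1 and 4, 6.86 CPM in control 2 and 12.6 CPM in control 3, against 115 CPM (interval 94.6 to 139) in HFHC 4, where 67 of 541 cells (12.4%, interval 9.73 to 15.5) had a UMI. In control 3, the control with as many LSECs, 7 of 537 cells (1.30%) had one. HFHC 4 lay above every control, and the count of 0 in control 1 and in control 4 allowed shares of up to 12.0% and 7.89% of their cells at a limit of 3 counts, and up to 13.7% and 9.25% by the exact interval. Of the 3929 genes tested in LSECs, 10.3% were also higher in HFHC 4 than in every control. The CPM ratio of HFHC 4 to control 3 was 9.10 (interval 4.77 to 19.5).

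Abcc9 in LSECs had 0 CPM in controls 1 and 4, 27.4 CPM in control 2 and 7.58 CPM in control 3, against 67.3 CPM (interval 52.0 to 85.8) in HFHC 4. The value of control 2 came from 4 UMIs in 2 of its 64 cells, and its interval, which reached 70.3 CPM, overlapped that of HFHC 4. In HFHC 4 the gene was detected in 50 cells (9.24%), in control 3 in 6 cells (1.12%), and the CPM ratio of these libraries was 8.88 (interval 3.87 to 25.1).

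Kcne3 in LSECs had 0 CPM in controls 1, 2 and 4, 3.79 CPM in control 3 from 3 UMIs in 2 cells, and 87.0 CPM (interval 69.4 to 108) in HFHC 4, where 49 cells (9.06%) had a UMI. Its CPM ratio of HFHC 4 to control 3 was 22.9 (interval 7.59 to 114). All 3 genes were at least 4 times as high in HFHC 4 as in control 3, as were 1.35% of the 9085 genes with at least 10 UMIs in both libraries together. With every cell thinned to 1000 UMIs and shallower cells left out, a UMI of any of the 3 genes was seen in 65 of 411 LSECs of HFHC 4 (15.8%) and 5 of 387 of control 3 (1.29%). Without thinning these shares were 22.9% of 541 cells and 2.61% of 537, and the median depths were 1643 and 1497 UMIs.

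**Figure D1:**
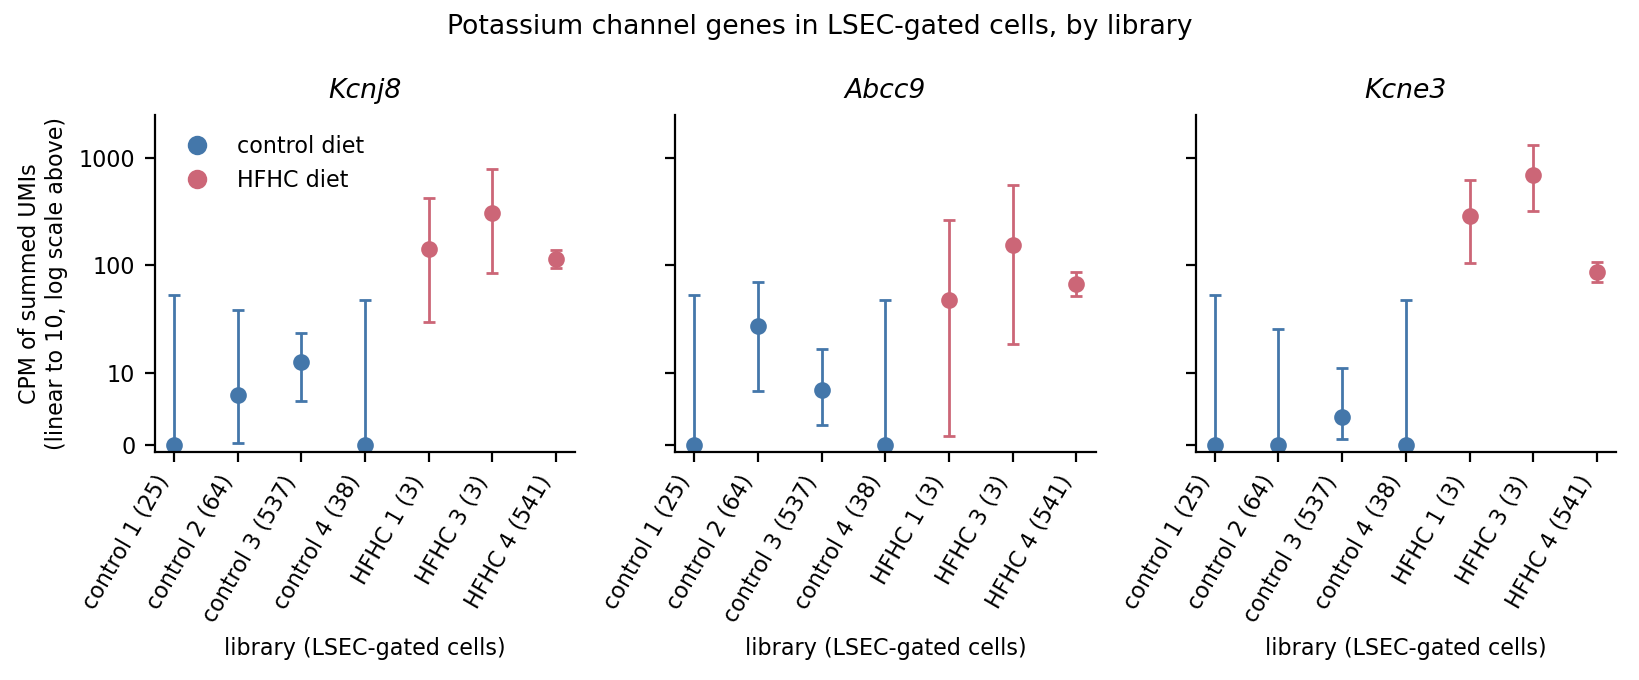
Each point is the CPM of summed UMIs in the LSEC-gated cells of 1 library, with its exact 95% Poisson interval, on an axis that is linear up to 10 and logarithmic above; the number of cells is in parentheses. HFHC 4 sits at 115, 67.3 and 87.0 CPM for Kcnj8, Abcc9 and Kcne3, and controls 1 and 4 at 0, with wide intervals for the libraries with few cells.

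HFHC 1 and HFHC 3, with 3 LSECs each, did not enter the choice of the genes, and their few cells carried them too. In HFHC 3 the levels were 308 CPM for Kcnj8 (4 UMIs), 154 CPM for Abcc9 (2 UMIs) and 694 CPM for Kcne3 (9 UMIs). One HFHC 3 cell of 6226 UMIs held 4 Kcnj8, 1 Abcc9 and 6 Kcne3 UMIs, another of 4373 UMIs held 1 Abcc9 and 3 Kcne3 UMIs, and the remaining cell, of 2369 UMIs, held none. The barcodes of all 3 were found in no other library, and the cells with the channel genes also held 5 UMIs each of Esm1, which encodes a proteoglycan secreted by activated endothelium. The HFHC 3 cell of 4373 UMIs also held 3 UMIs of cholangiocyte markers and 2 of stellate and fibroblast markers. The cell of 6226 UMIs held 0 of either. In HFHC 1 the levels were 143 CPM for Kcnj8 (3 UMIs), 47.6 CPM for Abcc9 (1 UMI) and 286 CPM for Kcne3 (6 UMIs). Every one of its 3 cells held at least 1 of the genes, and none of them held an Esm1 UMI. The barcodes of these HFHC 1 cells all occurred in other libraries, 2 of the cells were called doublets by Scrublet, and the cholangiocyte markers summed to 999.7 CPM in them from 21 UMIs. The part of cholangiocyte RNA in the Kcne3 values of HFHC 1 and HFHC 3 was not tested. After thinning to 1000 UMIs, 2 of 3 cells in each of these libraries kept a UMI of a channel gene, as against 0 of 19 cells from control 1, 1 of 58 from control 2 and 0 of 33 from control 4. With 3 cells per mouse no test was made.

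Pericytes and smooth muscle are where Kcnj8 and Abcc9 are best known, so their markers were measured in the same cells. In the LSECs of HFHC 4 the 9 mural markers had 1 UMI in all, of Rgs5, a pericyte gene, and 8 of the 9, among them Pdgfrb, Acta2 and Myh11, had 0. None of the 124 HFHC 4 LSECs with a channel gene held that UMI. The same list had 1 UMI in control 1, 14 in control 2, 7 in control 3, 0 in control 4, 2 in HFHC 1 and 0 in HFHC 3. Of the 10 stellate and fibroblast markers, 4 had UMIs in the LSECs of HFHC 4, Hgf 44, Ecm1 29, Colec11 3 and Col3a1 1. Lrat, Reln and Dcn were among those with none. Hgf stood at 45.6 CPM there against 41.7 CPM in control 3, and 11 of its UMIs lay in cells with a channel gene. The list summed to 79.8 CPM in the LSECs of HFHC 4 against 155 CPM in control 3 and 5865 CPM in control 1. All 8 cholangiocyte markers together had 1 UMI in the LSECs of HFHC 4.

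Outside LSECs, the classes with the highest CPM were stellate or fibroblast cells for Kcnj8 and Abcc9 and cholangiocytes for Kcne3. Kcnj8 and Abcc9 were both found in 2 of the 3 cells gated as stellate or fibroblast, which all came from control 2. The first of these cells held 1 Kcnj8 and 2 Abcc9 UMIs with 12 Lrat and 17 Reln UMIs, and the second held 1 Kcnj8 and 5 Abcc9 UMIs with 8 Lrat and 9 Reln UMIs. Lrat, which makes retinyl esters, and Reln mark hepatic stellate cells, and both cells also held Rgs5 UMIs (5 and 12). The remaining cell had no Lrat, Reln or channel gene UMI, and Kcne3 was absent from all 3. In the 63 vascular endothelial cells outside the sinusoids none of the 3 genes had a UMI, which allows a share of up to 4.76% at a limit of 3 counts and 5.69% by the exact interval. In the 1313 hepatocyte-gated cells, at a median of 1509 UMIs, Kcnj8 was found in 0 cells, Abcc9 in 1 and Kcne3 in 2 (0.152%, interval 0.0185 to 0.549). Of these cells 671 came from control 2, 637 from HFHC 3 and none from control 3 or HFHC 4, so they do not measure the free RNA of the libraries with most LSECs. The share of control 3 LSECs with Kcnj8, 1.30% (interval 0.526 to 2.67), lay above the interval of the hepatocyte-gated cells, which reached 0.281%. For Abcc9 the share in control 3 LSECs was 1.12% (interval 0.411 to 2.42) against 0.0762% in hepatocyte-gated cells (interval 0.00193 to 0.424), and for Kcne3 it was 0.372% (interval 0.0451 to 1.34), and both of these overlapped.

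**Figure D2:**
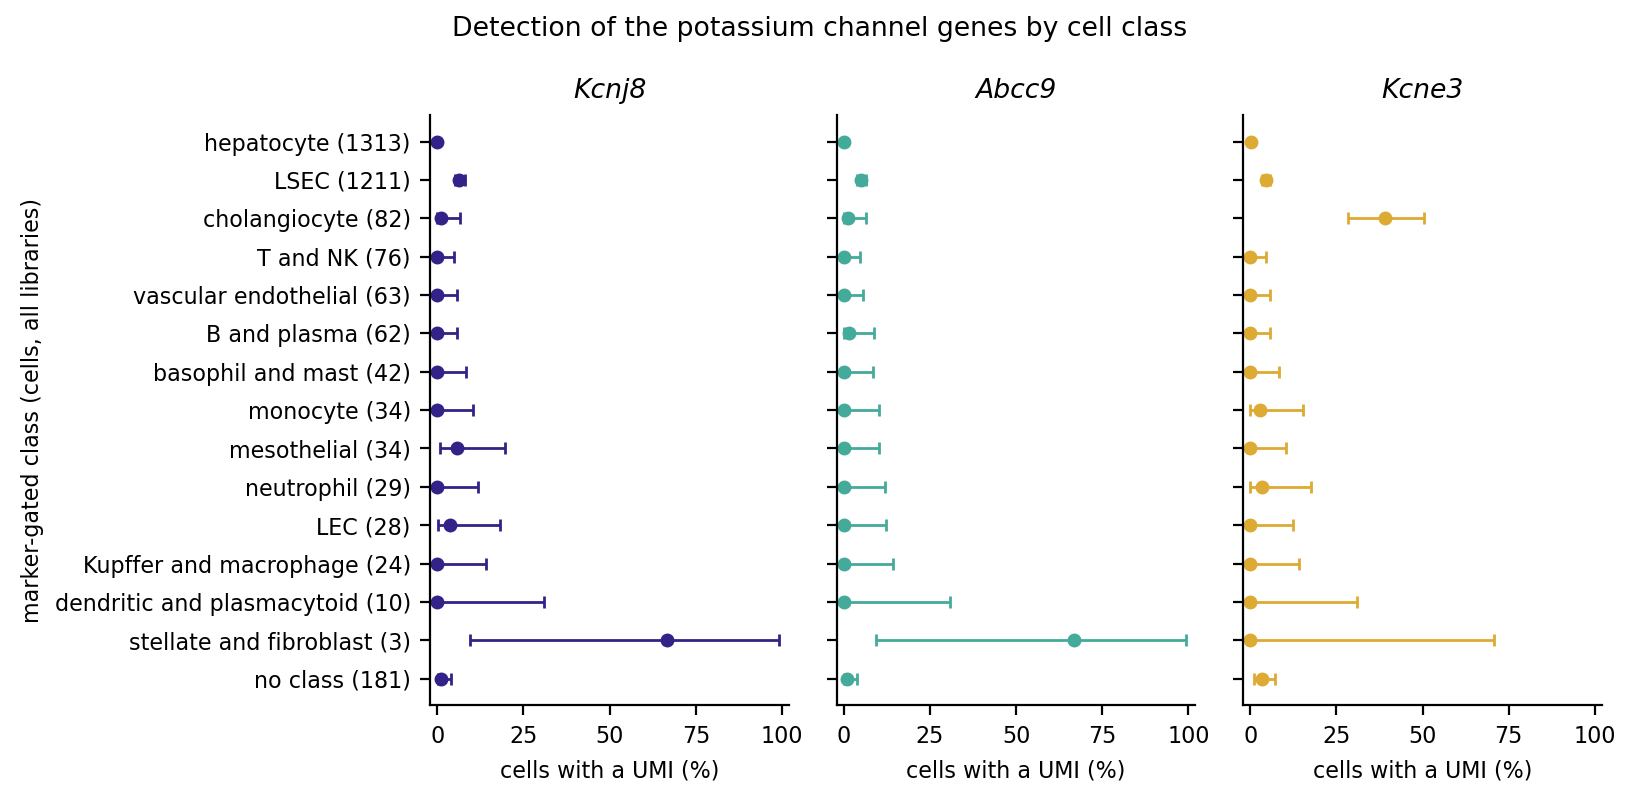
Points give the percentage of cells with a UMI in each marker-gated class over all libraries, with exact 95% Clopper-Pearson intervals; cell numbers are in parentheses, and the classes differ in depth and in which libraries they come from. Kcne3 stands at 39.0% in cholangiocytes, and Kcnj8 and Abcc9 at 66.7% of only 3 stellate or fibroblast cells.

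Kcne3 was higher in cholangiocytes, the epithelial cells of the bile ducts, than in the remaining cells in all 7 libraries that had cholangiocytes. It was found in 32 of 82 cholangiocyte-gated cells (39.0%, interval 28.4 to 50.4), with 73 UMIs or 154 CPM over all libraries. By library the level in cholangiocytes was 158, 350, 358 and 198 CPM in controls 1 to 4 and 96.2, 118 and 387 CPM in HFHC 1 to 3. In cells of the same libraries gated neither as cholangiocytes nor as LSECs it was 0.622 CPM in control 2, 0 CPM in the other 3 controls and 6.32, 13.8 and 2.21 CPM in HFHC 1 to 3, so that the ranges did not overlap. The mean difference was 235 CPM (SD 126, n = 7 libraries), with p = 0.015625 by an exact two-sided sign-flip permutation test, the smallest that 7 libraries can give. Adjusted over the 3 genes by the Benjamini-Hochberg method, the exact permutation p was 0.046875. With any 1 library left out the exact permutation p was 0.03125, the smallest that 6 libraries can give, and 0.09375 when adjusted over the 3 genes. The comparison was added after its values were seen. The same comparison gave a difference of -2.51 CPM for Kcnj8 (exact permutation p = 0.3125, n = 7) and 7.71 CPM for Abcc9 (exact permutation p = 1, n = 7), each with a UMI in 1 of the 82 cholangiocytes.

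Cholangiocytes were deeper than the cells they were compared with, with library medians of 2881.5 to 7775 UMIs against 381.5 to 2710. Thinned to 1000 UMIs, Kcne3 was seen in 8 of 74 cholangiocytes and 2 of 1334 other cells, and the mean difference of 166 CPM was in the same direction in 6 of 7 libraries with none reversed (exact permutation p = 0.03125, adjusted 0.09375). Within the 5 libraries that share barcodes the difference was 217 CPM and higher in 5 of 5 (exact permutation p = 0.0625, the smallest 5 libraries can give). In controls 3 and 4, which share few, it was 278 CPM and higher in 2 of 2. The diets were not compared in cholangiocytes, as 5 of the 7 libraries had 3 or 4 such cells and the values of both diets overlapped.

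**Figure D3:**
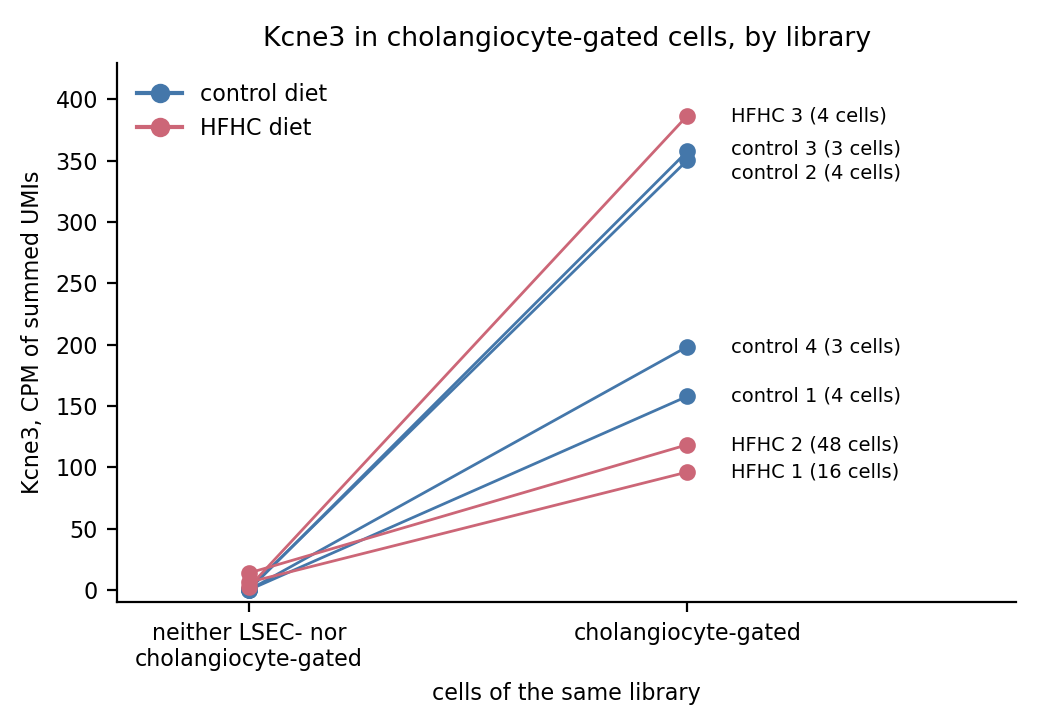
Lines join the Kcne3 level (CPM of summed UMIs) in cells gated neither as LSEC nor as cholangiocyte to that in cholangiocyte-gated cells of the same library, coloured by diet; HFHC 4 had no cholangiocyte-gated cell. Every line rises, from at most 13.8 CPM to at least 96.2 CPM.

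Over 22 combinations of library and class with at least 10 cells, Pearson's r of log2(CPM + 10) was 0.76 between Kcnj8 and Abcc9, 0.46 between Kcnj8 and Kcne3 and 0.33 between Abcc9 and Kcne3, as a description, since combinations of 1 library share its preparation. The combinations include the LSECs of HFHC 4, for whose levels the genes were chosen, so these r partly restate that choice. The gene most like the mean of the 3 was Lrrc8b, a subunit of volume-regulated anion channels (r = 0.83). The next 81 genes were tied at 0.83 only because their few UMIs, 1 for 59 of them and at most 7, all lay in the LSECs of HFHC 4, so this ranking carried no more information.

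Within HFHC 4 the 3 genes marked overlapping sets of LSECs. Of 541 cells, 417 held none of them, 90 held 1, 26 held 2 and 8 held all 3. Kcnj8 and Abcc9, pore and receptor, were both seen in 16 cells, where 6.19 would be found if detection of one were unrelated to the other. Abcc9 was detected in 23.9% of the 67 cells with Kcnj8 (interval 14.3 to 35.9) and in 7.17% of the 474 without it (interval 5.02 to 9.88). Kcne3 was detected in 29.9% of cells with Kcnj8 against 6.12% of those without, and in 28.0% of cells with Abcc9 against 7.13% of those without. Joint detection was 20 cells for Kcnj8 with Kcne3, where 6.07 would be found if unrelated, and 14 for Abcc9 with Kcne3, where 4.53 would be.

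Detection went with depth. The median was 1489 UMIs in cells with none of the genes, 2125.5 in cells with 1, 2595.5 in cells with 2 and 3201 in cells with 3, and the share of cells with any of them was 8.84%, 17.9% and 42.0% from the low to the middle and high tertile of cells by UMIs. The high tertile ran from 2077 to 7260 UMIs, so depth still varied within it. There Abcc9 was in 29.5% of cells with Kcnj8 against 11.7% without. Kcne3 was in 38.6% of cells with Kcnj8 against 14.6% without, and in 37.9% of cells with Abcc9 against 17.1% without. Only the intervals of Kcne3 by Kcnj8, 24.4 to 54.5 and 9.15 to 21.6, did not overlap, whereas those of Abcc9 by Kcnj8 (16.8 to 45.2 and 6.82 to 18.3) and of Kcne3 by Abcc9 (20.7 to 57.7 and 11.5 to 24.1) did. In the low tertile no more than 1 cell held any pair.

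At a fixed depth of 1000 UMIs most of the joint detection could no longer be seen. Abcc9 was then in 2 of 33 cells with Kcnj8 (6.06%, interval 0.743 to 20.2) and 5.03% of those without, and Kcne3 in 1 of 21 cells with Abcc9 (4.76%) and 4.36% of those without. Kcne3 remained in 5 of 33 cells with Kcnj8 (15.2%, interval 5.11 to 31.9) against 3.44% of those without (interval 1.84 to 5.81). At that depth 6 cells held more than 1 of the genes. In control 3 a single cell, of 3532 UMIs, held 2 of the genes, Kcnj8 and Kcne3.

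**Figure D4:**
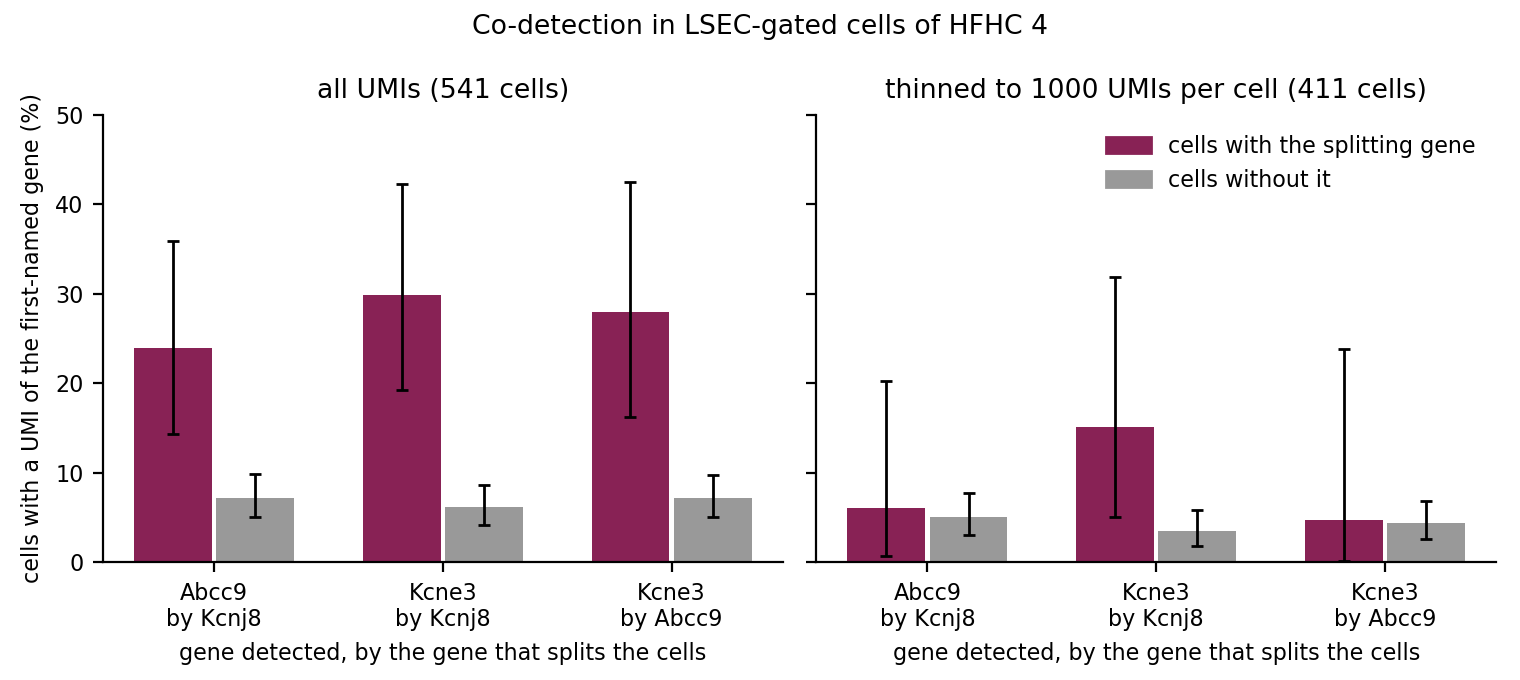
Bars give the percentage of LSEC-gated HFHC 4 cells with a UMI of the first-named gene, among cells with (purple) and without (grey) the gene after "by", with exact 95% Clopper-Pearson intervals, for all UMIs (left) and after thinning to 1000 UMIs (right). The purple bars stand at 23.9% to 29.9% on the left and at 4.76% to 15.2% on the right.

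LSECs of HFHC 4 with a channel gene held more Esm1 and Cxcl9 RNA and less RNA of most periportal genes than the other LSECs of that mouse. This comparison is between cells of 1 library, so it is described with counting intervals and no test. In the 124 cells with any of the 3 genes, Esm1 stood at 899 CPM against 234 CPM in the 417 cells without, a ratio of 3.85 (interval 3.15 to 4.72). Cxcl9, an interferon-induced chemokine, had a ratio of 1.68 (interval 1.31 to 2.15), and Apln, the ligand apelin, had 6 UMIs against 0. Cd36, a fatty acid transporter, and Fabp5, a fatty acid carrier, had ratios of 1.05 and 0.944, with intervals that held 1. Over the 7687 genes with at least 10 UMIs the median ratio was 0.916, 39.9% were above 1 and 3.98% were at least 2.

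Esm1 was detected in 59.7% of cells with Kcnj8, 58.0% of those with Abcc9 and 63.3% of those with Kcne3, against 19.2%, 20.8% and 20.3% of cells without the gene in question. With any of the genes it was in 52.4% of cells (interval 43.3 to 61.5) and without them in 15.8% (interval 12.5 to 19.7). After thinning to 1000 UMIs these shares were 44.6% and 14.7%, with intervals of 32.3 to 57.5 and 11.2 to 18.9. By UMI tertile the Esm1 ratio was 1.37 in the low (interval 0.479 to 3.23), 3.18 in the middle (interval 2.12 to 4.73) and 5.74 in the high one (interval 4.18 to 8.02).

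Most periportal genes, and 5 of 10 pericentral genes, had lower CPM in the cells with a channel gene. Of 12 periportal genes 11 had a ratio below 1, 9 with an interval below 1, and the median ratio was 0.562. Over the 7687 genes the median was 0.916 and 39.9% were above 1. How many of those had an interval below 1 was not counted, so the interval counts have no background. Cells with a channel gene were also deeper, with a median of 2216.5 UMIs against 1489. Ly6a, a surface antigen of the Ly6 family, had a ratio of 0.389 (interval 0.333 to 0.454), the tetraspanin Cd9 0.388 (interval 0.297 to 0.501), and Ntn4, a secreted netrin, 0.572 (interval 0.407 to 0.788). Of 10 pericentral genes with at least 10 UMIs, 9 had a ratio below 1, 5 with an interval below 1, and the median was 0.477, while the ratio of the list's sum was 0.924. Rspo3, which amplifies Wnt signals, had a ratio of 0.112 (interval 0.0225 to 0.343), the Wnt ligand Wnt2 0.497 (interval 0.290 to 0.814), and the anticoagulant receptor Thbd 0.344 (interval 0.141 to 0.730). The shares of cells with a UMI, with against without a channel gene, were 2.42% and 4.56% for Rspo3, 12.1% and 15.6% for Wnt2, and 4.84% and 9.59% for Thbd. They were 54.8% and 65.0% for Ly6a, 31.5% and 43.6% for Cd9, and 26.6% and 29.0% for Ntn4. The 60 Rspo3 UMIs without a channel gene thus lay in few cells, and the intervals treat UMIs as independent. Kit, Rab3b and Fabp4 had ratios of 0.965, 0.979 and 0.948 with intervals that held 1, and Pcdh17, a protocadherin, was higher at 1.48 (interval 1.17 to 1.87). The gap junction gene Gja4, from the list for larger vessels, had 3 UMIs in cells with a channel gene and 64 in cells without, a ratio of 0.105 (interval 0.0211 to 0.321).

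The periportal sum differed most in deep cells, with ratios of 0.828, 0.816 and 0.496 from the low to the high UMI tertile. The pericentral sum, which Fabp4 dominated, had ratios of 0.899, 0.942 and 0.852 in those tertiles. By gene, the periportal sum had a ratio of 0.586 in cells with Kcnj8, 0.623 with Abcc9 and 0.397 with Kcne3, each against cells without that gene. LSEC identity genes were closer to 1, with a median of 0.889 over 10 genes. Stab1 and Stab2, scavenger receptors that define LSECs, had ratios of 0.948 and 0.962, and Clec4g, a sinusoidal lectin, had 0.779.

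**Figure D5:**
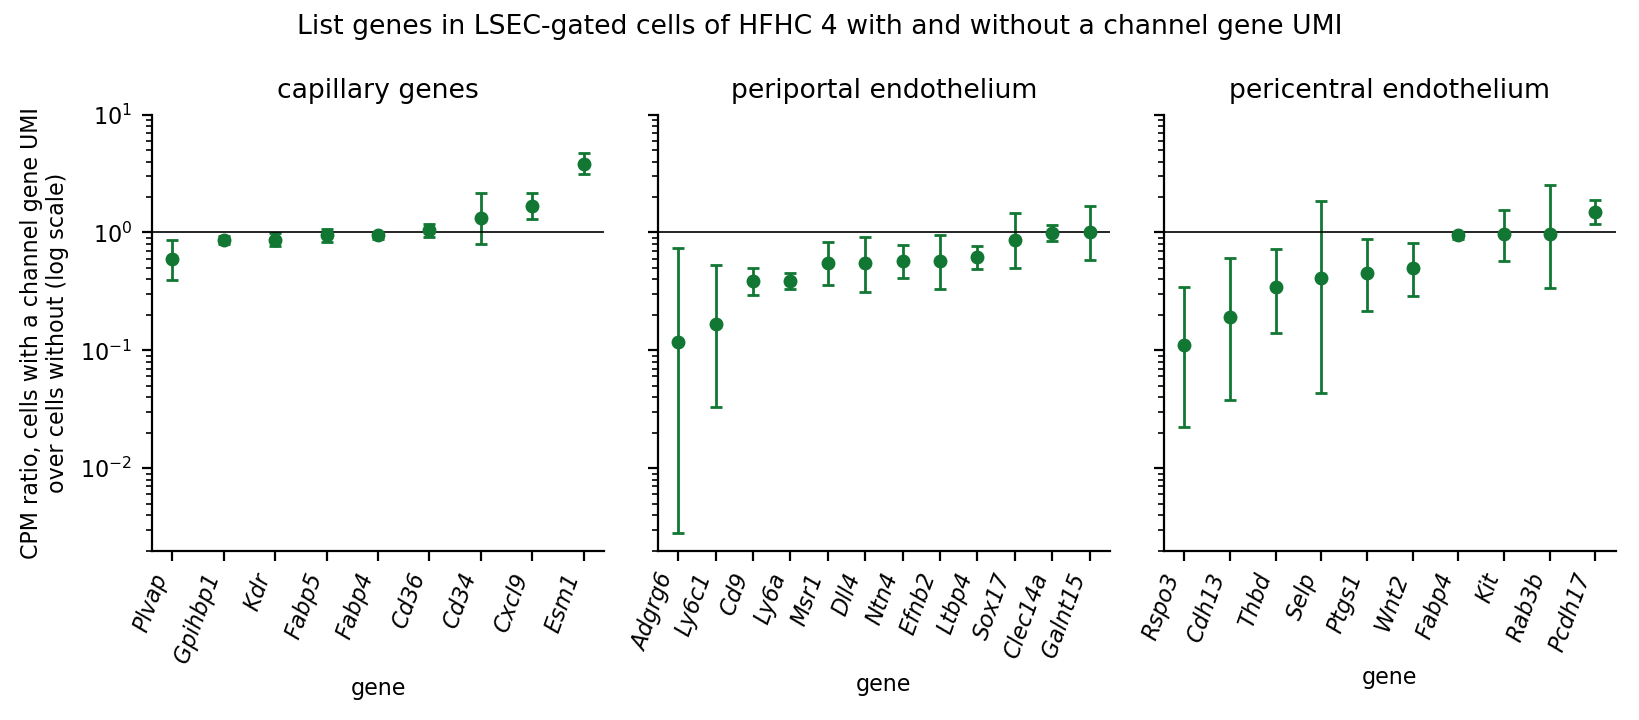
Points give the ratio of CPM in LSEC-gated HFHC 4 cells with a UMI of Kcnj8, Abcc9 or Kcne3 to that in cells without, on a log scale, for list genes with at least 10 UMIs and at least 1 in each set of cells, with exact 95% conditional intervals for counting error. Esm1 stands at 3.85 and Cxcl9 at 1.68, and 11 of the 12 periportal genes lie below 1.

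The genes whose levels in single LSECs of HFHC 4 were most like the sum of the 3 were, among 3973 genes found in at least 5% of the cells, Esm1 (r = 0.36), Odc1 (0.33), Rhoc (0.26), Ctgf (0.25), Plaur (0.23), Jund (0.23), Gmfg (0.22), Spata13 (0.21), Bok (0.20) and Cxcl10 (0.20). The measure was Pearson's r of log counts per 10000 over 541 cells of 1 library, and its median over all those genes was 0.0155. Odc1 encodes ornithine decarboxylase, which starts polyamine synthesis, Ctgf a matricellular protein, and Plaur the urokinase receptor. In control 3, where Esm1 was found in 0.559% of LSECs, r was 0.10 for Esm1 and -0.02 for Odc1. The lowest r were those of Ehd3, an endocytic protein of LSECs (-0.21), and Ly6a (-0.19).

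No other channel or signalling gene of the lists was called in the comparison of HFHC 4 with the controls. Summed LSEC counts of the 5 libraries with at least 10 LSECs, HFHC 4 and the 4 controls, were compared with edgeR's quasi-likelihood test over 3929 genes. The HFHC side of this test is 1 library, so the spread comes from the 4 controls alone, HFHC 4 is assumed to vary like them, and the test describes that mouse and not the diet. At a Benjamini-Hochberg adjusted p of 0.05, 0.153% of the genes were called higher and 0.229% lower. Of 101 further genes in 9 lists of channels and pathways tied to this one, 55 had a UMI, 21 passed the filter on low counts, and 0 were called higher and 0 lower, which does not show that they were alike. By edgeR 1 of the 21 had an unadjusted p below 0.05, and DESeq2 also called 0. The median log2 difference of the 21 was -0.34, against -0.08 over all genes tested. Kcnj8 and Kcne3 passed the filter, with log2 differences of 3.90 and 5.22, and Abcc9 did not. They passed through HFHC 4, where they had 111 and 84 UMIs, against at most 10 and 3 in a control. No test result is given for the 3 genes, because they were chosen from this contrast.

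The partners of the 3 genes were mostly not detected. Kcnj11 and Abcc8, pore and receptor of the ATP-sensitive channel of pancreatic beta cells, had 0 UMIs in these LSECs, as did the other 4 genes of the KCNE family in the table. Of 13 other inward rectifier genes 3 had a UMI, and none of the 8 ABCC transporters passed the filter.

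Genes of calcium entry and release, and genes of the cAMP arm that opens the channel, had more UMIs. The calcium release channels Itpr1 and Itpr2 had log2 differences of -1.28 and -1.25, Atp2b1, a calcium pump of the plasma membrane, -0.50, and Stim2, a calcium sensor of the endoplasmic reticulum, -0.41, none past the test. Of the 8 tested genes of the cAMP arm, Adcy4, an adenylyl cyclase, had -1.11, Rapgef3, a cAMP-activated exchange factor, -0.43, Prkaca, the catalytic subunit of protein kinase A, -0.40, and Gnas, which encodes the stimulatory G protein, -0.38, and none passed. The sodium pump subunit Atp1b3 had 0.07 and the pump regulator Fxyd5 0.67, and the potassium channel tetramerisation domain genes Kctd12 and Kctd10 had -0.80 and 0.08. All of these had an edgeR adjusted p of 0.9996.

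The capillary list was chosen with earlier results of these data known, so its genes are described without a test. In the same comparison with its 1 HFHC library, 7 of the 9 capillary genes past the filter were higher in HFHC 4 and 2 lower. The log2 difference was 6.53 for Esm1, 1.90 for Fabp5 and 1.64 for Cd36. Cd34, a sialomucin of capillary endothelium, had a log2 difference of 2.39, Cxcl9 1.43 and Fabp4 1.39. Of the 11 periportal genes tested none was called, and 10 had a log2 difference above 0 and 1 below it, the largest being 2.72 for Galnt15 and 1.06 for Efnb2. Of 11 pericentral genes 9 were lower, again with 0 calls, with log2 differences of -3.50 for Lhx6, -2.39 for Rspo3, -1.73 for Kit and -1.65 for Wnt2.

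The genes next to the 3 on their chromosomes had ratios of HFHC 4 to control 3 much closer to 1. Of the 4 protein-coding genes on each side of the Kcnj8 and Abcc9 pair, 5 had a UMI in these LSECs, and the CPM ratios of HFHC 4 to control 3 were 1.19 for Ldhb (interval 0.905 to 1.58), 0.990 for Cmas (interval 0.664 to 1.48), 0.842 for Golt1b (interval 0.521 to 1.36) and 1.31 for C2cd5 (interval 0.378 to 5.09). Spx had 1 UMI in control 3 and none in HFHC 4. Around Kcne3 the ratios ran from 0.615 for Ppme1 to 2.15 for Lipt2, the gene just before it (interval 0.915 to 5.62). No interval of a neighbour excluded 1, against 9.10, 8.88 and 22.9 for Kcnj8, Abcc9 and Kcne3.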

How the data were processed

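Single-cell RNA-seq libraries of 8 mice were analysed. The values deposited by the authors are whole, unscaled UMI counts for each gene in each cell, from Cell Ranger 3.0.1 and Seurat on mm10, per the submitters' processing notes; the sources used here do not give the cell filters. Every deposited cell had at least 202 genes and at most 10% mitochondrial UMIs. Groups were taken from the labels. Each mouse is 1 library and 1 replicate. Per library the kept cells held 170448 to 2309209 UMIs.

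Shared barcodes were kept once, which removed 224 cells. Cells were gated on marker lists (at least 3 markers), and no clusters were used. Scrublet (scanpy 1.11.5) called 37 cells as doublets; they were kept, and left out as an alternative. LSEC counts were summed per library where there were at least 10 such cells. The sums entered edgeR 4.0.16 with TMM factors, its default filter on low counts and a robust quasi-likelihood fit, which was tested on simulated data. DESeq2 1.42.0 was an alternative, as were other filters, gates and depths and leaving out each control. The Kcne3 test in cholangiocytes was added after its values were seen. Positions come from GENCODE, in mm10, and promoters from RefSeq.

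The 3 genes and all lists were chosen with earlier results of these data known. Named list genes are those past the test and up to 4 more per list with the largest log2 difference; for cells with and without a channel gene, examples were picked after their values were seen. Genes like the 3 are the 10 with the highest r. The study's 8 libraries are labelled as separate animals. Some genes of the lists are not reported here.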

Additional observations from a re-analysis of the deposited data

Results flagged for a closer look

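In each group of 4 libraries the gap from the highest or lowest value to the next was divided by the range of all 4. By this measure 4 of 12 such groups of channel gene levels had a library far from the rest. The rate of about 1 in 20 that chance gives for such flags cannot be set against this count, because the genes were chosen for their level in HFHC 4 and any single UMI among zeros is flagged. Over all cells of a library, Kcnj8 stood at 104 CPM in HFHC 4, with the next HFHC library at 16.4 CPM, and Abcc9 at 62.1 CPM in HFHC 4, with the next at 3.29 CPM. HFHC 4 is also the HFHC library with 541 LSECs where the other 3 have 0 to 3, so these levels and the number of LSECs cannot be told apart. Abcc9 stood at 59.6 CPM in the cholangiocytes of control 3 and at 0 in those of the other 3 controls, which is 1 UMI in 3 cells. Kcne3 stood at 3.79 CPM in the LSECs of control 3 and at 0 in the other controls, which is 3 UMIs in 537 cells.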

How the results depend on the processing

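The CPM ratios of HFHC 4 to control 3 stayed within their counting intervals under every gate, cell filter, doublet, barcode and depth setting tried, from 8.68 to 11.6 for Kcnj8, 8.51 to 12.3 for Abcc9 and 22.7 to 31.8 for Kcne3; thinned to 1000 UMIs, Kcne3 was at 0 in control 3 and gave no ratio. Thinning lowered the share of HFHC 4 LSECs with a UMI to 8.03% for Kcnj8, 5.11% for Abcc9 and 4.38% for Kcne3, and co-detection to 6.06% for Abcc9 in cells with Kcnj8, 15.2% for Kcne3 in cells with Kcnj8 and 4.76% for Kcne3 in cells with Abcc9; no other setting moved them beyond their intervals. edgeR called 15 genes in LSECs, 8 with no filter on low counts, 9 without Scrublet doublets, and 4 to 23 when 1 control was left out (4 without control 2, 23 without control 1); DESeq2 called 31. Of the settings chosen after seeing the data, libraries with at least 3 LSECs gave 2 calls, and the same with a replicate block 26, of 6 higher and 20 lower genes. With at least 10 LSECs no paired analysis was possible because the diets share only replicate number 4, and labels do not say that numbers pair mice. Leaving aside the 3 genes, for which no test result is given, no setting called a channel or signalling gene. The cause of the moves was not tested. Leaving out HFHC 4 leaves no HFHC library. The Kcne3 difference in cholangiocytes ran from 166 to 278 CPM, was 209.7 to 258.8 CPM when 1 library was left out, and missed 0.05 by the exact permutation test in sets of libraries too small to reach it, at 217 CPM in the 5 sharing barcodes and 278 CPM in the other 2. Low counts limit all results: most cells with a channel gene held 1 UMI.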
